A study of Sus scrofa with 10 samples.

Results

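The androgen gene CYP17A1, the LH receptor gene LHCGR, the hormone gene INSL3 and the Hedgehog genes PTCH1 and GLI1, which mark theca cells and their control by LH, were followed in ovary RNA of gilts. The genes were taken as the protein-coding loci of the deposited table that carry these symbols, and made 5 of 19972 protein-coding loci among 43499 loci in all. CYP17A1, INSL3, PTCH1 and GLI1 were found by symbol. LHCGR was named in the table only by its identifier ENSSSCG00000008421, and was matched to its symbol through a gene name table.

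Theca cells form the outer wall of the growing follicle. LH binds LHCGR on these cells and, through cAMP, raises steroid synthesis, in which CYP17A1 converts progestagens to androgens. Granulosa cells inside the follicle turn the androgens to oestrogens with CYP19A1 under FSH. INSL3 is a peptide hormone of the relaxin family that theca cells secrete. PTCH1 is the receptor of the Hedgehog ligands DHH and IHH, which granulosa cells make. Ligand binding to PTCH1 frees SMO, and the GLI factors then switch on target genes, among which are PTCH1 and GLI1 themselves.

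RNA was measured in 10 gilts with the same genetic background and born on the same day, of which 5 were given saline (control group) and 5 were given rpFSH (rpFSH treatment group). A separate library was made from each pig. The labels name no breed. Both groups received altrenogest, a progestin that delays oestrus, in a daily dose of 20 mg for 18 days from the age of 210 days, followed by 2 days without it. In the study methods the injection of rpFSH or saline comes after these 2 days, with no age given for it. The dose of rpFSH (recombinant pig follicle stimulating hormone, spelled fpFSH in the sample labels) was 1000 IU per pig, matched in volume by the saline, and the sample labels call the control group untreated. The pigs were 234 days old when the ovaries were taken, and surface follicles had been removed, so the values do not describe the theca of those follicles. For library construction the study methods give rRNA removal, but poly(A) selection is given in the labels. Total counts were between 64873797 and 75114003 per pig, with a median of 71374595. Expression levels are given as FPKM, the fragments of a locus scaled by its length and by the size of the library.

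The ovary genes NR5A1 and WT1, and the locus that GATA4 shares with NEIL2, were expressed in every pig, with a lowest value of 1.77 FPKM for WT1 in rpFSH pig 2. FOXL2 was not matched in the table. Of the theca and stroma list all 9 of 9 genes were matched, CYP17A1, INSL3 and PTCH1 included. COL1A1 was the most abundant of them. The summed FPKM of the list in control pigs 1 to 5 was 639, 141, 592, 677 and 771, and in rpFSH pigs 1 to 5 it was 474, 964, 292, 673 and 553. The sum, most of which came from COL1A1, DCN and INSL3, was lowest in control pig 2 and next lowest in rpFSH pig 3. Single genes differed from the sum, as ANPEP (16.3 FPKM) and NR2F2 (11.7 FPKM) were highest of all pigs in rpFSH pig 3.

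Some libraries stood apart from the others. Of the luteal list 7 of 8 genes were matched, LHCGR included, and CYP11A1 was the most abundant. Their summed FPKM was 54.4, 2752, 67.9, 36.1 and 20.9 in control pigs 1 to 5 and 1524, 58.2, 33.5, 359 and 44.6 in rpFSH pigs 1 to 5. Control pig 2, rpFSH pig 1 and rpFSH pig 4 were therefore far above the other 7 pigs, and STAR, which carries cholesterol into mitochondria, was at 532, 448 and 121 FPKM in these 3 pigs and at most 5.67 FPKM elsewhere. CYP11A1, PTGFR and SCARB1 were also highest in these 3 pigs, but PRLR, LHCGR and NR5A2 were not. PRLR was at 0.0995 FPKM in rpFSH pig 1 and 0.173 FPKM in rpFSH pig 4, against 2.30 FPKM in control pig 1. For ciliated epithelium 8 of 9 genes were matched, with OVGP1, whose locus also holds WDR77, the most abundant, and the sums were 5.88, 50.1, 5.17, 6.20 and 115.7 in control pigs 1 to 5. In rpFSH pigs 1 to 5 they were 4.21, 3.38, 4.39, 5.25 and 4.87. Control pigs 2 and 5 thus held more RNA of ciliated cell genes than any other pig, and control pig 5 also had the highest sum of the 5 smooth muscle genes, 1789 FPKM against at most 484 FPKM in the others. None of the matched genes of these lists was at the lowest written value in every pig. The 5 genes were therefore also tested without control pig 2, and without control pigs 2 and 5. Control pig 2 was the lowest of all pigs for INSL3, PTCH1 and GLI1, so leaving it out raises their control means.

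**Figure D1:**
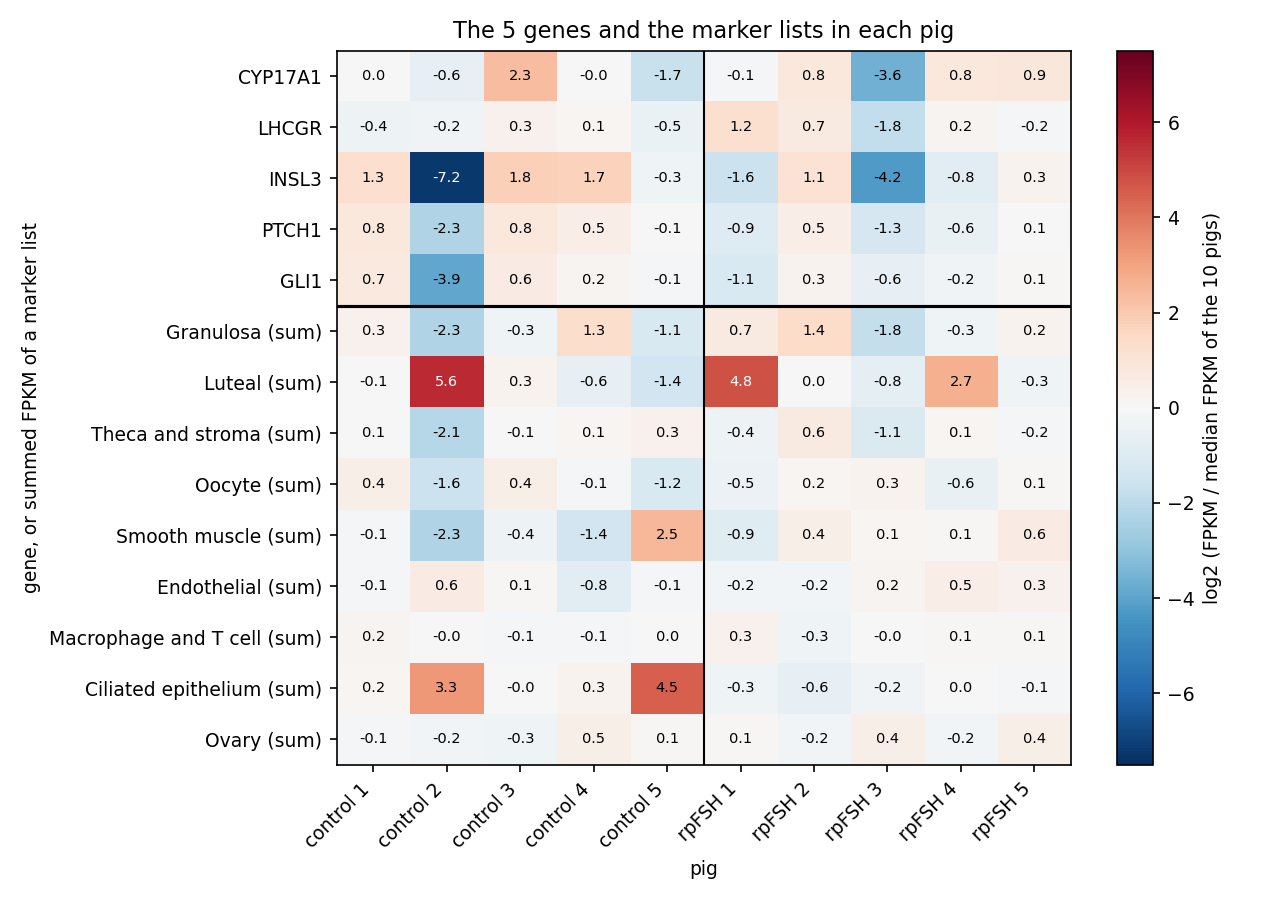
The 5 genes (upper rows, FPKM) and the summed FPKM of 9 marker lists (lower rows) in each of the 10 pigs, as log2 of the value over the median of the 10 pigs. Control pig 2 combined the lowest INSL3, at -7.21, with the highest luteal sum, at 5.61.

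LHCGR, the receptor, was higher on average in the rpFSH treatment group, but the values of the groups overlapped. Control pigs 1 to 5 had 2.50, 2.74, 4.01, 3.58 and 2.32 FPKM. The rpFSH pigs 1 to 5 had 7.32, 5.18, 0.907, 3.75 and 2.88 FPKM. The control pigs were close to each other, whereas rpFSH pigs 1 and 2 were above all control pigs and rpFSH pig 3 was below all of them. The mean was 3.03 ± 0.732 FPKM (SD, n = 5) in the control group, and that of the rpFSH treatment group was 4.01 ± 2.41 FPKM (SD, n = 5), a log2 ratio of 0.40. The ratio was 0.07 without rpFSH pig 1, and -0.05 without the 3 pigs with STAR above 100 FPKM, a choice made after seeing the data. It was 0.66 without rpFSH pig 3 (limma P = 0.0621, exact permutation p = 0.0873). The highest pig, rpFSH pig 1, was also a pig with a high luteal sum, in which LHCGR is counted. Control pig 2, with the highest luteal sum, had 2.74 FPKM of LHCGR. The part of luteal tissue in the LHCGR level was not tested. In bulk tissue, fewer cells of a type and less RNA per cell cannot be told apart.

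CYP17A1, the androgen-forming enzyme, did not separate the groups. It was at 8.28, 5.46, 41.5, 8.17 and 2.58 FPKM in control pigs 1 to 5. In rpFSH pigs 1 to 5 it was at 7.55, 14.4, 0.686, 14.0 and 15.1 FPKM. Control pig 3 was the highest of all pigs and rpFSH pig 3 the lowest, with the remaining 8 pigs between them. The mean was 13.2 ± 16.0 FPKM (SD, n = 5) in the control group, and that of the rpFSH treatment group was 10.3 ± 6.18 FPKM (SD, n = 5), a log2 ratio of -0.35. The direction rested on single pigs. The log2 ratio was 0.76 without control pig 3 and -0.05 without rpFSH pig 3, where the limma difference (described below) turned to 0.47, and it was 0.78 when group medians of 8.17 and 14.0 FPKM were compared.

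INSL3, the theca hormone, showed the widest range among the 5 genes, with a highest pig 515 times the lowest. Control pigs 1 to 5 had 124, 0.351, 181, 173 and 41.5 FPKM. The rpFSH pigs 1 to 5 had 17.1, 109.5, 2.79, 30.5 and 62.4 FPKM. Control pigs 1, 3 and 4 were above every rpFSH pig, but control pig 2 was below every rpFSH pig, so that the range of the control group spanned that of the rpFSH treatment group. The value of control pig 2 came from 23 counts, above the floor of 3 counts, against 11508 counts in control pig 4. All 5 rpFSH pigs were below the control median of 124 FPKM. The mean was 104 ± 80.3 FPKM (SD, n = 5) in the control group, and that of the rpFSH treatment group was 44.5 ± 42.5 FPKM (SD, n = 5), a log2 ratio of -1.23.

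PTCH1, the Hedgehog receptor, had the same order of pigs as INSL3, except that control pigs 1 and 4 changed places. Its values were 17.8, 2.15, 18.1, 14.8 and 10.0 FPKM in control pigs 1 to 5. In rpFSH pigs 1 to 5 they were 5.43, 14.4, 4.34, 7.00 and 10.8 FPKM. Control pigs 1, 3 and 4 were again above every rpFSH pig and control pig 2 below every rpFSH pig. The mean was 12.6 ± 6.67 FPKM (SD, n = 5) in the control group, and that of the rpFSH treatment group was 8.39 ± 4.16 FPKM (SD, n = 5), a log2 ratio of -0.58.

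GLI1, a transcription factor and target of the pathway, had the lowest mean of the 5 genes, although CYP17A1 was lower in rpFSH pig 3. Control pigs 1 to 5 had 2.16, 0.0869, 1.98, 1.49 and 1.24 FPKM. The rpFSH pigs 1 to 5 had 0.592, 1.58, 0.839, 1.11 and 1.38 FPKM. Control pigs 1 and 3 were above every rpFSH pig, and control pig 2, with 52 counts, was below every rpFSH pig. The mean was 1.39 ± 0.819 FPKM (SD, n = 5) in the control group, and that of the rpFSH treatment group was 1.10 ± 0.399 FPKM (SD, n = 5), a log2 ratio of -0.34. In the table GLI1 forms 1 locus with INHBE, an activin subunit gene, so these values cover both genes.

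**Figure D2:**
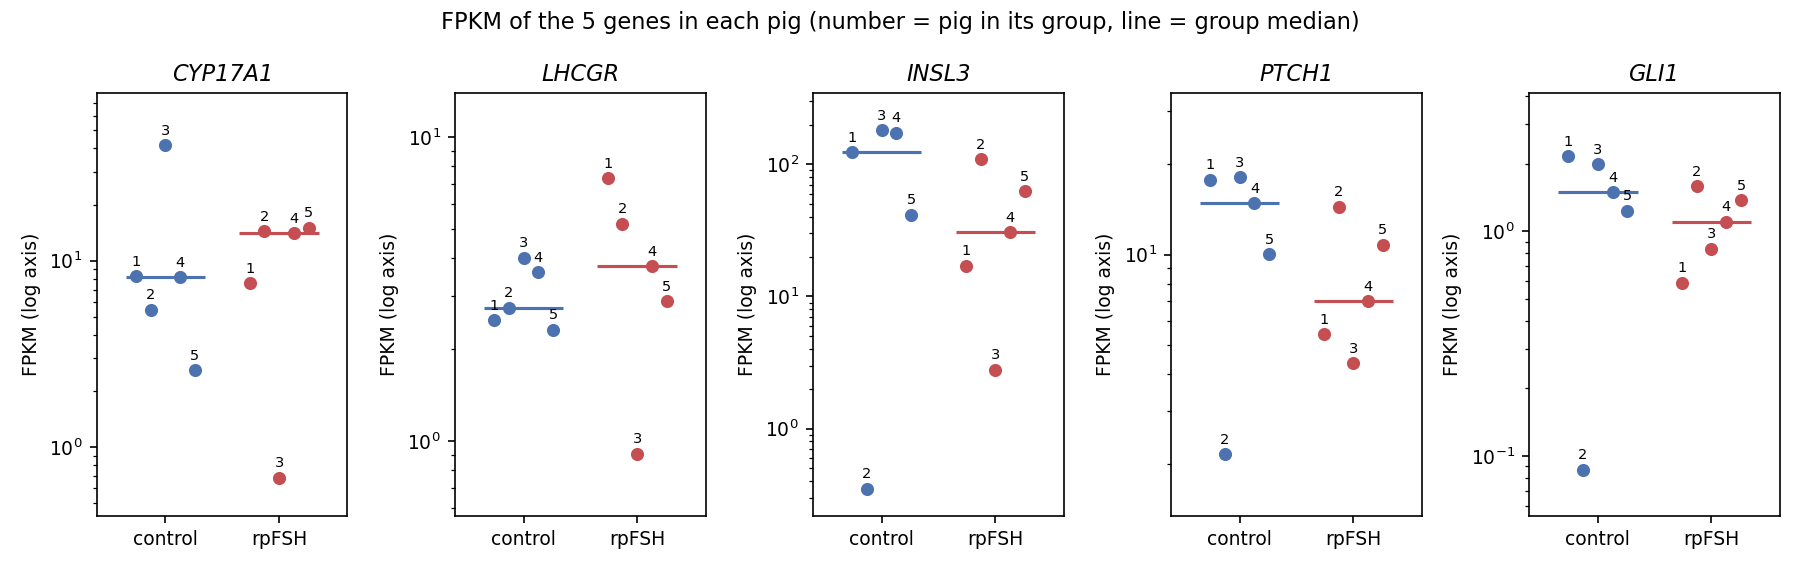
FPKM on a log axis of CYP17A1, LHCGR, INSL3, PTCH1 and GLI1 in each of 5 control pigs and 5 rpFSH pigs, with the pig number beside each point and a line at the group median. The groups overlap in every panel, with control pig 2 at the bottom for INSL3 (0.351 FPKM), PTCH1 (2.15 FPKM) and GLI1 (0.0869 FPKM).

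The effect of rpFSH on the 5 genes was tested in a limma fit on log2 (FPKM + 1) over the 15170 protein-coding loci whose mean FPKM reached 0.1, and mRNAs were called by an unadjusted P under 0.05 together with a log2 ratio of the means beyond 1 in either direction. All 5 genes passed this filter, and 0 of the 5 were called, where the rule called 1.13% of all tested loci (38 higher and 134 lower in the rpFSH treatment group, a split that became 92 and 105 without control pig 5 and 43 and 323 without control pig 3). None of the 5 had an unadjusted P under 0.05, against 3.03% of loci. The limma difference of INSL3 was -0.78 with a 95% interval from -3.80 to 2.23 (limma P = 0.578, exact permutation p = 0.603), which allows both a large decrease and an increase. For PTCH1 the difference was -0.40 with an interval from -1.48 to 0.69 (limma P = 0.437, exact permutation p = 0.5), and for GLI1 it was -0.12 with an interval from -0.72 to 0.48 (limma P = 0.672, exact permutation p = 0.722). For CYP17A1 it was -0.13 with an interval from -1.77 to 1.51 (limma P = 0.865, exact permutation p = 0.889), and for LHCGR it was 0.17 with an interval from -0.57 to 0.91 (limma P = 0.620, exact permutation p = 0.683). LHCGR and GLI1 had the narrowest intervals, but their width depends on the 1 added to the FPKM, which understates changes of low genes. With 0.1 added, the interval was from -0.84 to 1.14 for LHCGR and from -1.35 to 1.37 for GLI1, so that a difference of 1 lay within both. The limma adjusted p was 1 for each of the 5 genes, and 0 of the 15170 loci had a limma adjusted p under 0.05, while 460 had an unadjusted P under 0.05. By edgeR these counts were 0 and 717, and by DESeq2 86 and 917.

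The permutation p-values are two-sided and take every way of placing 5 of the 10 pigs in each group. The groups did not overlap for 0 of the 5 genes and for 0.626% of all tested loci. On the deposited counts, edgeR's quasi-likelihood test called 0 of the 5 genes (3.12% of loci), and 0 had an unadjusted P under 0.05 (4.73% of loci). DESeq2 likewise called 0 of the 5 (3.54% of 14844 loci), and 0 had an unadjusted P under 0.05 (6.18%). The edgeR log2 fold change was -0.32 for CYP17A1, 0.46 for LHCGR, -1.15 for INSL3, -0.51 for PTCH1 and -0.27 for GLI1, each with the sign of the FPKM ratio.

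Without control pig 2, the genes INSL3, PTCH1 and GLI1 were lower in the rpFSH treatment group by limma at an unadjusted P under 0.05, but CYP17A1 and LHCGR were not. The control mean of INSL3 was then 130 ± 64.1 FPKM (SD, n = 4), and the limma difference was -2.06 with an interval from -4.05 to -0.08 (limma P = 0.0433, exact permutation p = 0.0714). For PTCH1 the control mean was 15.2 ± 3.74 FPKM (SD, n = 4), and the difference was -0.86 with an interval from -1.56 to -0.16 (limma P = 0.0206, exact permutation p = 0.0635). GLI1 had a control mean of 1.72 ± 0.428 FPKM (SD, n = 4) and a difference of -0.38 (limma P = 0.0482, exact permutation p = 0.0794). For each of these 3 genes, rpFSH pigs 1, 3 and 4 were below all 4 control pigs, and rpFSH pigs 2 and 5 were within the control range. Of the pigs below, rpFSH pigs 1 and 4 had high luteal sums (1524 and 359 FPKM). Without control pig 2 (2752 FPKM), pigs with high luteal sums remained only in the rpFSH treatment group. The median log2 ratio of the luteal list then moved from -0.29 to 2.43. The part of luteal tissue in the differences of the 3 genes was not tested. Thus 3 of 5 genes passed P under 0.05, against 4.38% of loci, and INSL3, with a log2 ratio of -1.55, was the 1 gene called, against 1.33% of loci. As the 3 genes move together over pigs, they are not separate observations. None passed the adjustment, as the limma adjusted p was 0.938 for each of them. By exact permutation, which has 126 assignments here, none of the 3 genes passed 0.05. In edgeR without control pig 2, a fit chosen after seeing the data, 0 of 5 genes had an unadjusted P under 0.05 (5.26% of loci), and the unadjusted P was 0.108 for INSL3, 0.0575 for PTCH1 and 0.0961 for GLI1, beside the exact permutation p of 0.0714, 0.0635 and 0.0794. Leaving out rpFSH pig 3, the lowest rpFSH pig for INSL3, instead gave a limma difference of -0.07 for INSL3 (limma P = 0.960, exact permutation p = 0.968) and -0.22 for PTCH1 (limma P = 0.681, exact permutation p = 0.746).

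Leaving out control pigs 2 and 5 together, the pigs with high ciliated cell genes, 3 control pigs were left and limma called 2 of the 5 genes, against 2.47% of loci. These were INSL3, with a log2 ratio of -1.84 (limma P = 0.0259, exact permutation p = 0.0536), and PTCH1, with a log2 ratio of -1.01 (limma P = 0.0121, exact permutation p = 0.0357), each with a limma adjusted p of 0.643. GLI1 had a log2 ratio of -0.77 (limma P = 0.0257, exact permutation p = 0.0536). When instead the 3 pigs with STAR above 100 FPKM were left out, a choice made after seeing the data, none of the 5 genes was called, and the log2 ratio was -1.16 for INSL3 (exact permutation p = 0.171), -0.62 for PTCH1 (exact permutation p = 0.171) and -0.05 for LHCGR (exact permutation p = 0.771).

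**Figure D3:**
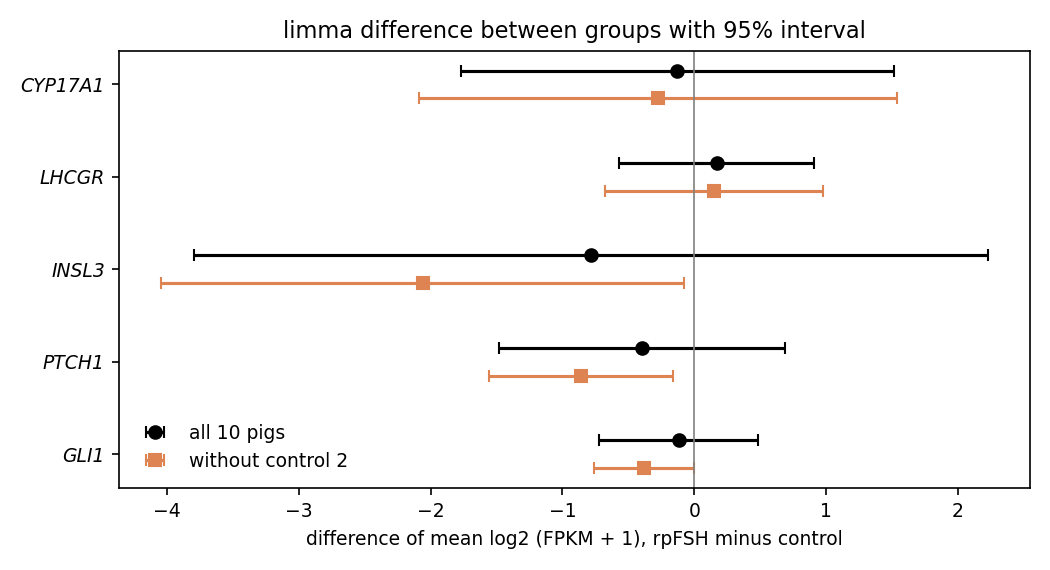
Difference of mean log2 (FPKM + 1) between the rpFSH treatment group and the control group from limma, with its 95% interval, for all 10 pigs (circles) and without control pig 2 (squares). With all pigs every interval spans 0, and without control pig 2 those of INSL3, PTCH1 and GLI1 lie below 0.

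Over the 10 pigs, INSL3, PTCH1 and GLI1 varied together, whereas CYP17A1 and LHCGR followed them less closely. Pearson's r of log2 (FPKM + 1) was computed for the 10 pairs of genes, with 100000 permutations and Benjamini-Hochberg adjustment over the 10 pairs. The r was positive in all 10 pairs, and 3 pairs passed an adjusted p of 0.05. INSL3 and PTCH1 had r = 0.976 (permutation p = 1e-05, the smallest that the permutations can give, adjusted p = 5e-05) and Spearman's r = 0.988 (permutation p = 1e-05). PTCH1 and GLI1 had r = 0.965 (permutation p = 1e-05, adjusted p = 5e-05) and Spearman's r = 0.964 (permutation p = 5e-05). For INSL3 and GLI1 r was 0.915 (permutation p = 0.00038, adjusted p = 0.00127) and Spearman's r was 0.927 (permutation p = 0.00032). These 3 relations held without control pig 2 and rpFSH pig 3, the pigs farthest from the median of the first gene, with r = 0.967, 0.957 and 0.893. They also held on deviations from the group means, with r = 0.977, 0.969 and 0.914.

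CYP17A1 and LHCGR had r = 0.647 (permutation p = 0.0455, adjusted p = 0.111) and Spearman's r = 0.588 (permutation p = 0.0808). Without control pig 3 and rpFSH pig 3 the r was 0.363, so this relation rested on these 2 pigs. CYP17A1 had r = 0.621 with INSL3 (permutation p = 0.0554, adjusted p = 0.111; Spearman's r = 0.673, p = 0.0382), 0.548 with PTCH1 (permutation p = 0.102, adjusted p = 0.169; Spearman's r = 0.685, p = 0.0340) and 0.450 with GLI1 (permutation p = 0.190, adjusted p = 0.272; Spearman's r = 0.636, p = 0.0542). Without the same 2 pigs these were 0.337, 0.265 and 0.314. LHCGR was the gene least like the Hedgehog pair, with r = 0.221 with PTCH1 (permutation p = 0.540; Spearman's r = 0.236, p = 0.514) and 0.043 with GLI1 (permutation p = 0.903; Spearman's r = 0.103, p = 0.786). Its r with INSL3 was 0.377 (permutation p = 0.285; Spearman's r = 0.273, p = 0.450). Control pig 2 shows the contrast between the genes, since its LHCGR and CYP17A1 were at -0.24 and -0.59 relative to the median of the 10 pigs on the log2 FPKM scale, while its INSL3, PTCH1 and GLI1 were at -7.21, -2.27 and -3.91. In rpFSH pig 3 all 5 genes were among the 3 lowest pigs, and in control pig 3 all 5 were among the 3 highest.

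**Figure D4:**
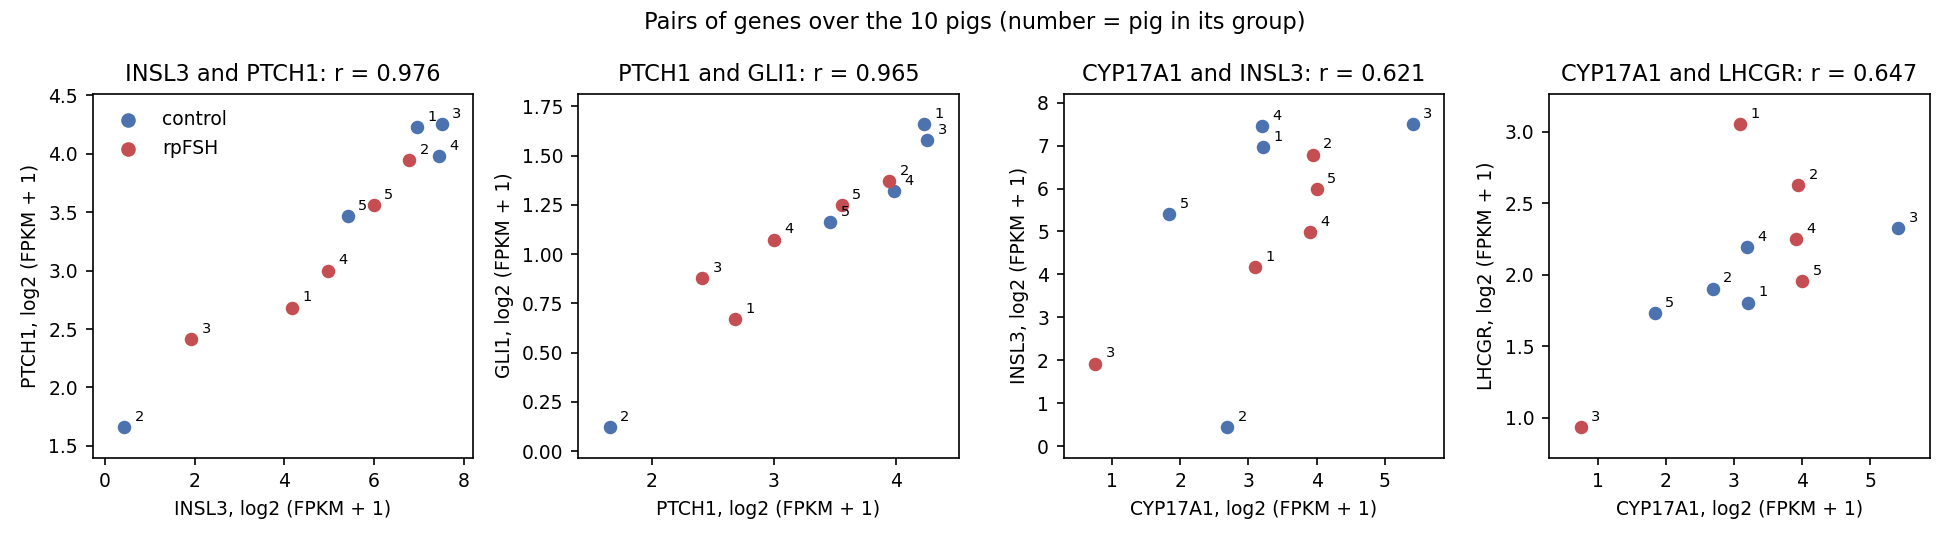
Log2 (FPKM + 1) of 4 pairs of genes over the 10 pigs, with control pigs and rpFSH pigs in different colours and the pig number beside each point. INSL3 and PTCH1 (r = 0.976) and PTCH1 and GLI1 (r = 0.965) lie close to a line with both groups mixed along it, while CYP17A1 with INSL3 (r = 0.621) and with LHCGR (r = 0.647) scatter.

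The ratio of 2 genes inside a pig was compared for 4 pairs, as log2 of FPKM plus 0.1. The 0.1 moves a ratio with a low gene towards 0, as for GLI1 in control pig 2 (0.0869 FPKM). GLI1 to PTCH1, target factor to receptor, was -2.98, -3.59, -3.13, -3.22 and -2.92 in control pigs 1 to 5 and -3.00, -3.11, -2.24, -2.56 and -2.88 in rpFSH pigs 1 to 5. The rpFSH treatment group was higher by 0.41 on the log2 scale, with rpFSH pigs 3, 4 and 5 above all control pigs, but the exact permutation p was 0.0635, or 0.254 adjusted over the 4 ratios. On counts plus 0.5 the difference was 0.55 (exact permutation p = 0.111). LHCGR to FSHR, the LH receptor to the FSH receptor, was -1.45, 2.58, -0.56, -0.27 and -0.38 in control pigs 1 to 5 and 1.63, -0.29, -0.50, 1.40 and -0.51 in rpFSH pigs 1 to 5. The counts imply that FPKM divides by 61.4 kb for LHCGR, so the sign of this ratio holds for the deposited FPKM only. The 3 pigs with LHCGR well above FSHR were control pig 2, rpFSH pig 1 and rpFSH pig 4, which were the pigs with high luteal sums in both groups. Of all pigs, LHCGR was highest in rpFSH pig 1 (7.32 FPKM). In control pig 2 and rpFSH pig 4 LHCGR was at 2.74 and 3.75 FPKM, with FSHR low at 0.375 and 1.36 FPKM. The group difference in the ratio was 0.36 (exact permutation p = 0.722, adjusted p = 0.905). It was 0.0053 without control pig 1 and 1.01 without control pig 2.

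The log2 ratio of CYP17A1 to CYP19A1, androgen to oestrogen synthesis, was 2.70 ± 1.74 (SD, n = 5) in the control group, and that of the rpFSH treatment group was 1.97 ± 0.638 (SD, n = 5), and CYP17A1 had the higher FPKM in all 10 pigs. The group difference of -0.73 was within the spread between pigs (exact permutation p = 0.389, adjusted p = 0.778), and was -0.22 without control pig 2 and -1.26 without control pig 4. CYP17A1 to INSL3 was -3.89, 3.62, -2.12, -4.39 and -3.96 in control pigs 1 to 5 and -1.17, -2.92, -1.88, -1.12 and -2.04 in rpFSH pigs 1 to 5. INSL3 exceeded CYP17A1 in every pig except control pig 2, and the group difference was 0.32 (exact permutation p = 0.905, adjusted p = 0.905). The direction depended on single pigs, as the difference was -0.11 without control pig 1, -0.24 without control pig 4 and -0.13 without control pig 5, but 1.76 without control pig 2 (exact permutation p = 0.0397, not adjusted over the ratios).

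The order of mean FPKM over the 10 pigs was INSL3 (74.2), CYP17A1 (11.8), PTCH1 (10.5), LHCGR (3.52) and GLI1 (1.25). The order was the same in both groups. INSL3 was above CYP17A1 in 9 of 10 pigs, by 1.98 on the log2 FPKM scale (exact sign-flip permutation p = 0.0312), and in 7 of the 10 fits that left out a pig this p was above 0.05. CYP17A1 and PTCH1 did not differ beyond their spread, as CYP17A1 was higher in 5 of 10 pigs with a mean log2 difference of -0.21 (exact sign-flip permutation p = 0.641). PTCH1 was above LHCGR in 8 of 10 pigs by 1.49 (exact sign-flip permutation p = 0.00781), and LHCGR was above GLI1 in 10 of 10 pigs by 1.67 (exact sign-flip permutation p = 0.00195). These levels depend on the length that FPKM divides by, which the counts imply to be 61.4 kb for LHCGR, 36.1 kb for PTCH1 and 8.04 kb for GLI1, against 2.56 kb for CYP17A1 and 0.894 kb for INSL3. What these lengths stand for was not tested, so the order holds for the deposited FPKM only.

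Of the Hedgehog list 19 of 20 genes were matched (SCUBE2 was not) and 18 passed the filter, PTCH1 and GLI1 included, and 0 of 18 were called in either direction. The median log2 ratio of the 18 was -0.19, beside -0.08 over all tested loci, and 12 of the 18 had a lower mean in the rpFSH treatment group. As the median over all loci was also below 0, lower means were common there too. The GLI3 locus also holds INHBA and is counted in the granulosa list as well. The ligand IHH was at 3.31, 0.0595, 5.54, 5.94 and 1.37 FPKM in control pigs 1 to 5 and at 2.85, 4.09, 0.387, 1.02 and 4.03 FPKM in rpFSH pigs 1 to 5. IHH was thus also lowest in control pig 2 and next lowest in rpFSH pig 3, as INSL3 was. The ligand DHH reached at most 0.487 FPKM and SHH at most 0.0484 FPKM. HHIP, a Hedgehog-binding inhibitor that the pathway induces, was at 3.42 ± 1.82 FPKM (SD, n = 5) in control pigs and at 2.39 ± 1.51 FPKM (SD, n = 5) in rpFSH pigs (log2 ratio -0.52, exact permutation p = 0.492). SMO, the transducer, had a log2 ratio of 0.04 and SUFU, which holds back the GLI factors, 0.08. Without control pig 2, 3 of the 18 genes, PTCH1, GLI1 and the co-receptor CDON, had an unadjusted P under 0.05 by limma, against 4.38% of loci, all lower in the rpFSH treatment group. Of these, PTCH1 and GLI1 are the genes already described, and the median log2 ratio was -0.28 beside -0.07 over all loci.

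**Figure D5:**
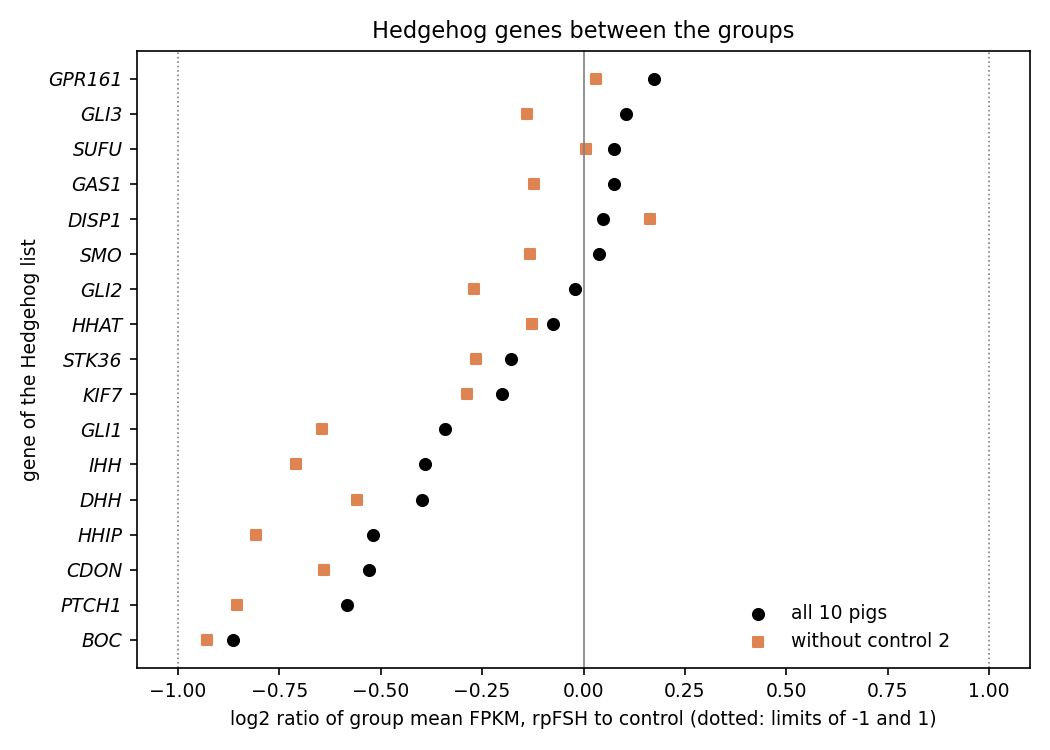
Log2 ratio of group mean FPKM, rpFSH treatment group to control group, of 17 of the 18 tested Hedgehog genes with all 10 pigs (circles) and without control pig 2 (squares), with dotted lines at -1 and 1. No gene shown lies beyond either line, and PTCH1 moves from -0.58 to -0.86 and GLI1 from -0.34 to -0.64 without control pig 2.

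In the steroid synthesis route 13 of 19 genes were matched and 11 tested, with 0 called and a median log2 ratio of 0.25. CYP11A1, which makes pregnenolone upstream of CYP17A1, was at 1758 FPKM in control pig 2, 787 FPKM in rpFSH pig 1 and 178 FPKM in rpFSH pig 4, and at most 34.4 FPKM in the other pigs. CYP17A1 in these 3 pigs was at 5.46, 7.55 and 14.0 FPKM, inside the range of the others. CYB5A, which aids the lyase step of CYP17A1, was highest in the same 3 pigs, at 60.6, 136.7 and 53.6 FPKM. Among the 14 regulators of CYP17A1 all were tested and 0 were called, with a median log2 ratio of 0.08. NR5A1, a nuclear receptor that activates steroid genes, was at 4.24 ± 0.409 FPKM (SD, n = 5) in control pigs and at 5.21 ± 1.35 FPKM (SD, n = 5) in rpFSH pigs (exact permutation p = 0.183), with far less spread between pigs than CYP17A1. NR5A2 ranged from 0.507 FPKM in rpFSH pig 3, where CYP17A1 and LHCGR were lowest, to 101.6 FPKM in rpFSH pig 1, where LHCGR was highest. In control pig 2, the next highest for NR5A2 (23.9 FPKM), LHCGR was at 2.74 FPKM and CYP17A1 at 5.46 FPKM. A relation of NR5A2 to these genes was not tested.

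Of the 17 genes of gonadotropin receptor coupling all were tested and 0 were called, with a median log2 ratio of -0.05. GNAS, the G protein subunit through which LHCGR and FSHR signal, was the most abundant by the value of a locus that also holds ENSSSCG00000033041, at 35.9 ± 4.30 FPKM (SD, n = 5) in control pigs and 32.1 ± 1.99 FPKM (SD, n = 5) in rpFSH pigs. The adenylyl cyclase ADCY9 had an unadjusted limma P of 0.0445 with a log2 ratio of 0.31, and the kinase subunit PRKACA had 0.0321 with a log2 ratio of -0.32, both with an exact permutation p of 0.0159 and a limma adjusted p of 1. FSHR was at 4.15 ± 2.60 FPKM (SD, n = 5) and 3.09 ± 2.15 FPKM (SD, n = 5), a log2 ratio of -0.42 (exact permutation p = 0.659). In the relaxin family 8 of 10 genes were matched and 6 tested, with 0 called and a median log2 ratio of -1.08. In the fit without control pig 2, INSL3 and RXFP3 were called (2 of 6, against 1.33% of loci), RXFP3 with a log2 ratio of -1.91 at a highest value of 0.334 FPKM. Besides INSL3 these genes were all low, and RXFP2, the receptor of INSL3, ranged from the lowest written value of 0.0001 FPKM in control pig 2 to 2.89 FPKM in control pig 5.

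The cell type lists were compared in the same way. Of the theca and stroma list 0 of 9 genes were called, with a median log2 ratio of -0.07, and of the granulosa list 0 of 7, with 0.17. PRLR was the 1 of 7 luteal genes called, against 1.13% of loci, with a log2 ratio of -2.57 (limma P = 0.0168, exact permutation p = 0.0556). The list had a median of -0.29, and 4 of the 7 genes had a lower mean in the rpFSH treatment group. STAR (0.09), LHCGR (0.40) and NR5A2 (1.69) had log2 ratios above 0. The luteal median turned to 2.43 and the granulosa median to -0.14 without control pig 2. Of the ciliated epithelium list 2 of 8 genes were called by limma, DNAH5 and DNAH9, both lower in the rpFSH treatment group, and the median was -3.68. By edgeR 8 of the 8 were called lower. The list includes CFAP161, DRC7 and LRRC46, which the study had measured by qRT-PCR as differentially expressed mRNAs, so these counts are not compared with the share over all loci. Only DNAH9 was called by limma without control pig 2, and the median was then -3.42. The size of this median rested mainly on control pig 5, whose summed FPKM of the list was 115.7. The sums were 5.17 to 6.20 FPKM in control pigs 1, 3 and 4 and at most 5.25 FPKM in rpFSH pigs. For CFAP161 and LRRC46 every control pig was above every rpFSH pig (exact permutation p = 0.00794 each), and the other matched genes overlapped. The lowest control and highest rpFSH values were 0.0523 and 0.0454 FPKM for CFAP161 and 0.246 and 0.163 FPKM for LRRC46. The oocyte (7 tested, median 0.13), smooth muscle (5 tested, -0.64), endothelial (4 tested, 0.21), macrophage and T cell (5 tested, 0.06) and ovary (3 tested, 0.04) lists held 0 called genes. The lower smooth muscle value in the rpFSH treatment group rested on control pig 5. In control pigs 1 to 4, DES was at most 6.96 FPKM and TAGLN at most 64.5 FPKM. The rpFSH means were 23.3 and 94.5 FPKM. MYH11 and CNN1 in these control pigs were also below the rpFSH means, but ACTA2 in control pig 1 (139.8 FPKM) was above its rpFSH mean (132.8 FPKM). Leaving out control pig 2, the median was 0.62 for the steroid synthesis route, -0.03 for the regulators of CYP17A1, 0.04 for gonadotropin receptor coupling, -0.20 for theca and stroma, -0.93 for smooth muscle, 0.37 for endothelial, 0.0076 for oocyte, 0.03 for macrophage and T cell and 0.02 for ovary genes, beside -0.07 over all loci. The smooth muscle median again rested on control pig 5, which stayed in this fit. Of the 4 endothelial genes, CDH5 then had an unadjusted P under 0.05 by limma (log2 ratio 0.49). The granulosa sum, with SERPINE2 the most abundant gene, was 89.9, 14.9, 56.3, 177 and 32.7 FPKM in control pigs 1 to 5 and 114.5, 188, 21.2, 58.1 and 85.3 FPKM in rpFSH pigs 1 to 5. Control pig 2 and rpFSH pig 3, the pigs with the lowest INSL3 and PTCH1, thus also had the lowest granulosa sums, and none of these genes was at the lowest written value. The part of cell composition in the INSL3, PTCH1 and GLI1 levels was not tested.

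The loci whose pattern over the 10 pigs was most like each gene were named by Pearson's r of log2 (FPKM + 1) among 11310 other protein-coding loci whose mean FPKM reached 1. For PTCH1 these were HS3ST1 (r = 0.961), FSHR (r = 0.960) and DOCK3 (r = 0.958). For GLI1 they were HS3ST1 (r = 0.970), ENSSSCG00000021676 (r = 0.958) and ZNF184 (r = 0.952), so that HS3ST1 was the closest of these loci to both Hedgehog genes. INSL3 was most like TREML2 (r = 0.971), a locus of NSRP1 (r = 0.961) and GPC1 (r = 0.958). CYP17A1 was most like a locus of ITGA9 and CTDSPL (r = 0.894), ADAMTS17 (r = 0.880) and ALPL (r = 0.873), and LHCGR was most like NDUFA12 (r = 0.899), PLEKHH1 (r = 0.890) and ENSSSCG00000032047 (r = 0.884). The closest r was thus lower for CYP17A1 and LHCGR than for the others.

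The 5 genes lie on 5 chromosomes of Sscrofa11.1. CYP17A1 is on chromosome 14 from 113805753 to 113812504 (minus strand), LHCGR on chromosome 3 from 91953724 to 92031557 (plus strand), INSL3 on chromosome 2 from 59929584 to 59931219 (plus strand), PTCH1 on chromosome 10 from 26626659 to 26703223 (plus strand), and GLI1 with INHBE on chromosome 5 from 22732516 to 22748001 (plus strand). INSL3 overlapped no other locus. All other genes overlapped loci on the opposite strand. The study methods give dUTP in the synthesis of the second cDNA strand. Whether the counting used strand is not stated, so their reads cannot be told apart there from the deposited values. Inside PTCH1 lay 2 minus-strand loci that were not protein-coding, MSTRG.4007 with a mean of 2.12 FPKM and MSTRG.4008 with 4.23 FPKM, which followed PTCH1 over the pigs with r = 0.970 and 0.993. GLI1 overlapped a minus-strand locus by 3365 bp, which had r = 0.921 with GLI1 and a mean of 0.913 FPKM. GLI1 also lay within a plus-strand locus of MARS that was not protein-coding (r = -0.191). LHCGR lay wholly within a minus-strand locus of GTF2A1L and PPP1R21, with r = -0.409, and overlapped another minus-strand locus of GTF2A1L, not protein-coding, by 23092 bp, with r = 0.357. CYP17A1 overlapped a locus of AS3MT and CNNM2 by 3160 bp, with r = 0.627.

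In the table's annotation, PTCH1 and GLI1 shared 4 KEGG pathways, Hedgehog signaling among them, and 4 GO terms, cilium and the smoothened signaling pathway among them. CYP17A1 and LHCGR shared 2 KEGG pathways, ovarian steroidogenesis and prolactin signaling. INSL3 shared 1 KEGG pathway with LHCGR, neuroactive ligand-receptor interaction. With CYP17A1, PTCH1 or GLI1 it shared 0, although its values followed those of PTCH1 most closely of all pairs. Its 4 GO terms in common with the GLI1 locus, hormone activity among them, are borne by a locus that includes INHBE.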

How the data were processed

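FPKM and counts per locus were used for ovary RNA of 10 gilts, 1 library per pig. The authors' methods give Cutadapt for trimming, Hisat2 and Bowtie2 for mapping (genome Sscrofa11.1) and StringTie for assembly. The submitters' processing notes list Bowtie 0.12.2, HISAT2 2.0 and StringTie 1.3.0. The deposited FPKM come from StringTie and Ballgown, and how the authors made the deposited counts is not stated.

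Groups were compared with limma 3.58.1 (eBayes with trend) on log2 (FPKM + 1), for protein-coding loci whose mean FPKM reached 0.1, with Benjamini-Hochberg adjustment over all tested loci. The effect on a low gene is understated on this scale. The log2 ratio of group means was used as the fold. edgeR 4.0.16 (TMM) and DESeq2 1.42.0 on counts were alternatives, and DESeq2 gave no adjusted p to 326 loci. R 4.3.3, Python 3.11.15, numpy 2.4.6, pandas 2.3.3, scipy 1.17.1 and matplotlib 3.10.9 were used. Permutation tests were two-sided, with seed 1 for correlations. The fits were tested on simulated data. Other alternatives were the pseudocount, the filter, the scaling, the form of the fold, the replicate block and leaving out pigs.

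The 5 genes and the gene lists were chosen with earlier results of these data known. The genes named were the 5 genes, the called and the most abundant genes and further genes of the lists, the 3 loci most like each gene, and loci within 10 kb of it. A depth of 3 counts, or 0.0399 to 0.0462 CPM per pig, was taken as the floor. Transcript-level lncRNA values were not analysed here.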

Additional observations from a re-analysis of the deposited data

Results flagged for a closer look

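In 18 groups of 5 pigs tested, 2 held a pig far from the others of its group, with a gap to the nearest pig over 0.71 of the group's range. Chance gives about 1 in 20 groups if these are independent, but here they share pigs and genes. Control pig 2 came just under the limit for the ratio of LHCGR to FSHR (0.708) and for INSL3 (0.703). CYP17A1 in rpFSH pig 3 was low, at 0.686 FPKM, while the other rpFSH pigs were at 7.55 to 15.1 FPKM (gap 0.720 of the range of log2 (FPKM + 1)). The log2 ratio of CYP17A1 to INSL3 in control pig 2 was high, at 3.62, while the other control pigs were at -4.39 to -2.12 (gap 0.717 of the range).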

How the results depend on the processing

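Over the alternatives, 119 of 125 log2 ratios of the 5 genes kept their direction and their call (P and ratio together); the ratio itself cannot change with the pseudocount, the filter or the replicate block. Either limit alone was crossed without a change of call: INSL3 was at -0.93 without control pig 3, -0.96 without control pig 4, -0.92 without rpFSH pig 3 and -0.78 as the limma coefficient, PTCH1 was at -1.08 with the ratio of medians, and the P of PTCH1 and GLI1 fell under 0.05 without control pig 2. The limma difference of CYP17A1 turned to 0.41 without control pig 3 and 0.47 without rpFSH pig 3, that of GLI1 to 0.011 and 0.14 with pseudocounts of 0.1 and 0.01 and to 0.0042 without control pig 1, and that of LHCGR to -0.052 without rpFSH pig 1 and -0.18 without the 3 pigs with STAR above 100 FPKM. CYP17A1 turned to 0.78 with the ratio of medians, and LHCGR to -0.055 without the 3 pigs with STAR above 100 FPKM, a choice made after seeing the data. Leaving out each pig gave -0.62 to 0.76 for CYP17A1, where the sign turned without control pig 3 (0.76), 0.07 to 0.66 for LHCGR, -1.88 to -0.92 for INSL3, which was called without control pig 2 (-1.55), -0.87 to -0.42 for PTCH1 and -0.64 to -0.13 for GLI1. INSL3 (-1.84) and PTCH1 (-1.01) were called without control pigs 2 and 5. The permutation difference of GLI1 changed sign on TMM-scaled CPM (p = 0.968).

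The 172 called mRNAs became 63 with a mean FPKM of at least 1, 17 with the limma coefficient as the fold, 473 by edgeR, 658 by edgeR with no filter, 526 by DESeq2, 374 without control pigs 2 and 5, and 142 to 366 when each pig was left out (292 without control pig 1, 366 without control pig 3, 300 without control pig 4). Fewer loci tested and, for the coefficient, a fold on the log2 (FPKM + 1) scale enter the first 2 counts; the cause of the others was not tested. Quantile normalization called 79 higher and 96 lower.

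Leaving out each pig gave 1.71 to 2.64 for INSL3 over CYP17A1, with p above 0.05 in 7 fits, and -0.38 to 0.063 for CYP17A1 over PTCH1, reversed without rpFSH pig 3. The within-pig ratio CYP17A1 to INSL3 ranged from -0.24 to 1.76, with the sign turned without control pig 1 (-0.11), 4 (-0.24) or 5 (-0.13), and GLI1 to PTCH1 from 0.28 to 0.50, with an exact permutation p = 0.0397 without rpFSH pig 2. LHCGR to FSHR ranged from 0.0053 to 1.01 and CYP17A1 to CYP19A1 from -1.26 to -0.22. The order by counts per kilobase was not run, since no transcript lengths were at hand.

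Same-numbered pigs had r of -0.11, -0.413, 0.0518, -0.275 and 0.111 between their deviations, so the numbers do not pair them. The replicate block called 167 mRNAs, and none of the 5 genes.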
